A study of Mus musculus with 9 samples.

Results

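The CXC chemokine ligands described here are 10 genes, Cxcl1, Cxcl2, Cxcl3, Cxcl5, Cxcl9, Cxcl10, Cxcl11, Cxcl12, Cxcl16 and Pf4, taken by their symbols from 45535 named genes of a bulk RNA-seq table. The samples were CD103+ dendritic cells (DCs) from the lungs of mice of the strain given as C57/BL6j, all treated with bleomycin, an agent that injures the lung, for 7 days before harvest. Cells were released with collagenase and isolated with magnetic beads. In the "before culture" group (5 samples) RNA was taken directly, and in the "after culture" group (4 samples) the cells were first kept for 18 h ex vivo in RPMI medium with 10% serum and antibiotics. Every sample of both groups carries the bleomycin treatment, and no untreated lung and no other culture time was compared. The labels give neither age nor sex, and do not say how many mice made a sample, so a p-value measures the spread between these samples. The extraction label speaks of lung RNA, while the cell type label names the isolated DCs.

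CXC chemokines are small secreted proteins that guide leukocytes through G protein-coupled receptors. Those with a glutamate-leucine-arginine (ELR) motif, among them Cxcl1, Cxcl2, Cxcl3 and Cxcl5, act through Cxcr2 and draw neutrophils, and their genes are known targets of NF-kB. Cxcl9, Cxcl10 and Cxcl11 are induced by interferons and draw activated T and NK cells through Cxcr3. Cxcl12 is a stromal chemokine for Cxcr4 and Ackr3, Cxcl16 is made as a membrane-bound protein for Cxcr6, and Pf4 (platelet factor 4, Cxcl4) is stored in platelet granules and also made by some myeloid cells.

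Values are normalized read counts, corrected for sequencing depth but not for gene length. Depth in named genes was 14.7 to 28.8 M reads before and 26.0 to 35.3 M reads after culture. The integrin CD103 is encoded by Itgae, which stood at 18138 ± 1537 before (SD, n = 5) and 1727 ± 335 after culture (SD, n = 4). Of 11 markers of type 1 conventional DCs, 3 rose and 8 fell, and their summed level went from 143423 to 172698 before to 32451 to 36273 after culture. Of 10 markers of mature DCs, 7 rose, 2 fell and 1 was not called, with sums of 62332 to 66312 before and 188573 to 207143 after culture. Markers of other cells were also present before culture. Nearly all fell on the endothelial (10 of 10), fibroblast (9 of 10), lung epithelial (9 of 11) and neutrophil (9 of 9 tested) lists. The other lists were more mixed, with 7 lower, 1 higher and 2 not called of 10 for alveolar macrophages, 7 lower and 1 higher of 12 for T and NK cells, 4 lower and 2 higher of 12 for monocytes and interstitial macrophages, and 4 lower and 2 higher of 9 tested for platelets and megakaryocytes. In bulk RNA, fewer cells of a type and less RNA per cell cannot be told apart.

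The ligands did not move together. Cxcl5, Cxcl3, Pf4 and Cxcl16 rose, and Cxcl9, Cxcl2, Cxcl10, Cxcl12 and Cxcl1 fell, in limma's test with Benjamini-Hochberg adjustment over all 18202 tested genes and a threshold of 0.05. This gives 4 ligands higher and 5 lower of the 9 tested, where 34.2% of all tested genes were called higher and 34.6% lower, 68.8% in all. The median log2 fold change (after minus before) was −0.86 over the 9 ligands and 0.0065 over all tested genes, and the ligands spanned −5.52 to 8.11. Changes of at least 4-fold were called for 6 of the ligands, with Cxcl5, Cxcl3 and Pf4 higher and Cxcl9, Cxcl2 and Cxcl10 lower, against 12.1% of all tested genes (3.93% higher and 8.19% lower). Cxcl11 was too low to be tested, and Cxcl5 passed the filter on low values (a mean of at least 10 over the 9 samples) only through its cultured samples. The 5 values before and the 4 after culture did not overlap for 8 of the 10 ligands, all but Cxcl1 and Cxcl11. Of these 8, 4 lay higher and 4 lower after culture. Non-overlap was seen in 57.3% of all tested genes, 28.7% higher and 28.6% lower.

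**Figure D1:**
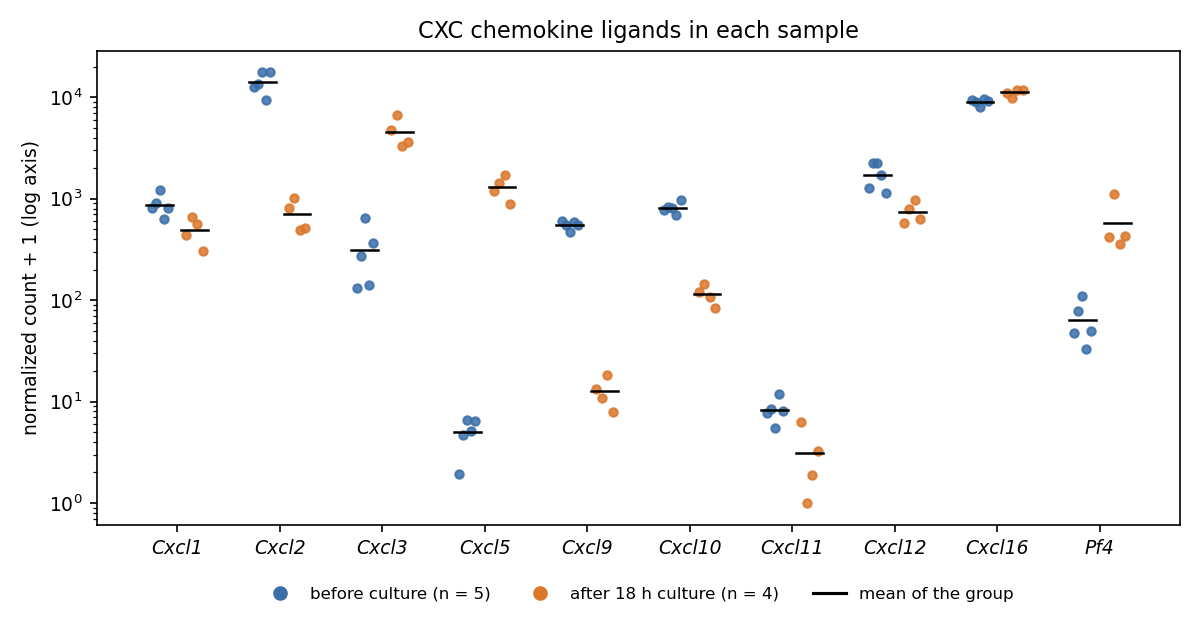
Normalized counts of the 10 ligands in each sample, on a log10 axis of the count plus 1, with before-culture samples and after-culture samples as separate points and a bar at each group mean. Cxcl5 goes from 0.952 to 5.61 before culture to 882 to 1695 after it, while Cxcl9 goes from 468 to 608 to 6.84 to 17.3.

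The ELR ligands split. Cxcl2, a neutrophil attractant that myeloid cells release early in inflammation, read 12528, 13633, 17624, 9501 and 17540.1 in the before-culture samples and 816, 1009.9, 489 and 518 after culture. Every cultured sample lay below every fresh one, with the nearest pair 9.41-fold apart. The mean fell from 14165 ± 3467 (SD, n = 5) to 708 ± 249.8 (SD, n = 4), 20.0-fold lower (log2 fold change −4.35, SE 0.221, limma adjusted p = 1.29e-09).

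Cxcl3, a close relative of Cxcl2 that also signals through Cxcr2, moved the other way. Its values were 129, 269, 644, 139.8 and 362 before and 4738, 6611, 3280.1 and 3617 after culture. The fresh samples differed among themselves by several fold, yet the nearest fresh and cultured samples were still 5.09-fold apart. The mean rose 14.8-fold, from 309 ± 211 to 4562 ± 1502 (log2 fold change 4.09, SE 0.390, limma adjusted p = 6.94e-07). Cxcl2 and Cxcl3 share 5.35% and 3.89% of the 50-base windows of their longest transcripts (2066 and 3498 bases) with other genes, most often with each other. Their coding transcripts are shorter (1109 and 1016 bases), and the share within those was not measured. Reads from shared windows are uncertain in origin, which weighs most on the lower gene of the pair, Cxcl3 before and Cxcl2 after culture. How many reads this concerns was not tested.

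Cxcl5, an ELR ligand best known from epithelial cells in the lung, was at the edge of detection before culture. The 5 fresh samples held 1, 3, 5, 5 and 3 reads (0.952, 3.71, 5.61, 4.18 and 5.37 normalized counts), 17 reads in all. The 4 cultured samples held 1343, 1881, 1863 and 1160 reads (1186, 1426, 1695 and 882 normalized counts). The groups were 157-fold apart at their nearest samples. The mean rose 327-fold, from 3.97 ± 1.86 to 1297 ± 346 (log2 fold change 8.11, SE 0.334, limma adjusted p = 1.82e-10). The log2(count + 1) scale of that fold change understates changes from such low levels. In the same samples the lung epithelial markers fell in 9 of 11 with none higher, and their summed level went from 26483 to 45769 before to 4774 to 9264 after culture. Which cells held the Cxcl5 transcripts was not tested.

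Cxcl1, also known as KC in the mouse, changed least of the 4 ELR ligands. Its values were 799.8, 912, 1211, 634 and 811 before and 439, 661, 559 and 302 after culture, and the lowest fresh sample lay below the highest cultured one. The mean fell from 874 ± 213 to 490.1 ± 155, 1.78-fold lower (log2 fold change −0.86, SE 0.212, limma adjusted p = 0.00268).

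Cxcr2, the receptor that these ligands share and a defining gene of neutrophils, fell from 880.4 ± 327 to 23.3 ± 12.8 (log2 fold change −5.23, limma adjusted p = 4.74e-09). Cxcr1, its sister receptor, read 50.5 ± 17.8 before and 86.4 ± 15.2 after culture and was called higher (0.83, limma adjusted p = 0.0184), although its groups overlapped. The neutrophil list fell in 9 of its 9 tested genes, with sums of 19367 to 30643 before and 1217 to 2251 after culture. Ly6g, with 2 to 10 reads in each fresh sample and 0 in every cultured one, was too low to be tested. Trem1, expressed by neutrophils and monocytes, went from 5047 ± 896 to 43.2 ± 12.7 (−6.86, limma adjusted p = 4.34e-12). The part of neutrophil RNA in the fall of Cxcl2 and Cxcl1 was not tested.

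The promoters of Cxcl3, Cxcl1 and Cxcl2, genes of the same cluster on chromosome 5, are shown. They share a kB-like match near their start sites, and Cxcl3 rose while Cxcl1 and Cxcl2 fell. Each line gives the 120 bases before the RefSeq start (GRCm38.p6), on the strand of the gene, 5′ to 3′. Capitals mark matches to a kB-like motif (GGG, any pair of bases, TT, any base, then CC) searched on both strands, and to TATAAA.
Cxcl3, chr5:90785981-90786100, plus strand: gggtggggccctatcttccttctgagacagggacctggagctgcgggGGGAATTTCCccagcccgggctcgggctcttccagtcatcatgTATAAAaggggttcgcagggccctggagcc
Cxcl1, chr5:90891125-90891244, plus strand: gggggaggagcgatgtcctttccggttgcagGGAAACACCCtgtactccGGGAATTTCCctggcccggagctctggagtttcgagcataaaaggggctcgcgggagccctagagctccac
Cxcl2, chr5:90903779-90903898, plus strand: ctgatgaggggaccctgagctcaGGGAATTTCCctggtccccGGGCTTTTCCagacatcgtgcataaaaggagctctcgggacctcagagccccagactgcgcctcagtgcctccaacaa

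The kB-like match GGGAATTTCC stood in all 3 of these promoters, 73 to 64 bases before the RefSeq start of Cxcl3, 71 to 62 before Cxcl1 and 97 to 88 before Cxcl2. GENCODE M21 starts Cxcl2 at 90903871, before its printed stretch ends at 90903898, so the last printed bases lie inside that gene model. For Cxcl1 (90891241) and Cxcl3 (90786103) the 2 annotations differ by only a few bases. The difference in position between Cxcl2 and the others thus depends on the annotation used. Cxcl1 and Cxcl2 each held a further match, the former on the opposite strand. TATAAA was matched in Cxcl3 at 30 to 25 bases before the start and in neither of the others within the 250 bases searched. Both of those hold cataaa in the printed stretch, which differs from the motif only in its first letter. Over those 250 bases, 4.00% of 27025 RefSeq promoters held the kB-like motif and 12.97% held TATAAA. Aligned end to end, the 250-base windows of Cxcl2 and Cxcl3 were 56.1% identical, those of Cxcl1 and Cxcl3 52.0% and those of Cxcl1 and Cxcl2 50.5%. The other pairs among the 7 ligand promoters in the RefSeq table were 43.1 to 50.4% identical, so the values for Cxcl1 stood close to that range. The Cxcl2 window reaches into its GENCODE gene model, and the effect of this offset on its identities was not tested.

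AU-rich elements in the 3′ end of a transcript, built from ATTTA, are known to shorten the life of chemokine mRNAs. The densest stretch of 30 bases in each 3′ untranslated region is shown for the same 3 genes, with ATTTA in capitals, because their number differs between the ligands.
Cxcl1: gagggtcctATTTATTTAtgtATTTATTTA
Cxcl2: tATTTATTTAtctatgtATTTATTTATTTA
Cxcl3: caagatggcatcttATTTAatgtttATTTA
The longer form TATTTAT occurred 7 times in the 734 bases of Cxcl2, 6 times in the 592 of Cxcl1, 2 times in the 645 of Cxcl3 and 1 time in the 1111 of Cxcl5. Among 13467 tested genes with an annotated 3′ untranslated region, 0.104% held as many as Cxcl2, 0.223% as many as Cxcl1, 9.28% as many as Cxcl3 and 27.2% at least 1. Cxcl12 also held 1, in a 3′ untranslated region of 5188 bases. None was found in those of Cxcl9, Cxcl10, Cxcl11, Cxcl16 and Pf4. Of 6 genes for proteins that control the stability of mRNAs through their 3′ ends, none rose, 3 fell and 3 were not called (median log2 fold change −0.97). Zfp36, which encodes the decay factor tristetraprolin, fell from 64573 ± 8619 to 10409.8 ± 188 (−2.62, limma adjusted p = 1.42e-10). Zfp36l2, of the same family, changed by −2.15. Zc3h12a, which encodes regnase-1, a ribonuclease known to cut at stem-loops rather than at AU-rich elements, changed by −1.81.

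Cxcl9, Cxcl10 and Cxcl11, the interferon-inducible ligands, were all lower on average after culture. Cxcl9 read 608, 552, 468, 583 and 548 before and 12.4, 9.86, 17.3 and 6.84 after culture, the latter from 9 to 19 reads a sample. The fresh samples were close to one another, and the nearest cultured sample was 27.1-fold lower. The mean fell 47.6-fold, from 552 ± 53.1 to 11.6 ± 4.42 (log2 fold change −5.52, SE 0.213, limma adjusted p = 1.0e-10), the deepest fall among the 9 tested ligands.

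Cxcl10, also called IP-10, fell as well. Its values were 775, 828, 802, 685 and 977 before and 120.1, 143, 107 and 83.6 after culture. All cultured samples were lower than all fresh ones, by 4.81-fold at the nearest pair. The mean fell 7.17-fold, from 814 ± 106 to 113 ± 24.6 (log2 fold change −2.85, SE 0.148, limma adjusted p = 1.65e-09). Cxcl11, annotated as a polymorphic pseudogene in this reference strain, had 34 reads over the 5 fresh samples and 10 over the 4 cultured ones (7.32 ± 2.30 and 2.12 ± 2.32 normalized counts). It had 0 reads in 1 cultured sample, its groups overlapped, and it was too low for the test.

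The promoters of Cxcl9 and Cxcl10 are printed because these neighbours fell together. Each line gives the 220 bases before the RefSeq start (GRCm38.p6), on the strand of the gene, 5′ to 3′, with capitals for matches to the same kB-like motif, to TATAAA and to an interferon-response-like motif (GAAA, any pair of bases, then GAAA), all searched on both strands.
Cxcl9, chr5:92328080-92328299, minus strand: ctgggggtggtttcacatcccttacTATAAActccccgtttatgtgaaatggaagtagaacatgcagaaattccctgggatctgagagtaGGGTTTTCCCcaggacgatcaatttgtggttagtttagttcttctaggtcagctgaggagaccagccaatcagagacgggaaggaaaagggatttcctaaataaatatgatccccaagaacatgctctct
Cxcl10, chr5:92348890-92349109, minus strand: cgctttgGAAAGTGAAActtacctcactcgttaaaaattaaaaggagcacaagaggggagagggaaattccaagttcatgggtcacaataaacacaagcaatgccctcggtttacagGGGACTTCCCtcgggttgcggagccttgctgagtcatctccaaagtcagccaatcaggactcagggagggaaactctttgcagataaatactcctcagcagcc
Both held 1 kB-like match, and Cxcl10 held GAAAGTGAAA at 213 to 204 bases before its start, a motif found in 3.04% of all promoters. Of the 7 ligand promoters in the RefSeq table, 5 held the kB-like motif (Cxcl1, Cxcl2, Cxcl3, Cxcl9 and Cxcl10), and Cxcl12 and Pf4 did not. No match says only that these letters are not in this window.

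Cxcr3, the receptor for Cxcl9 and Cxcl10, fell from 545 ± 32.3 to 254 ± 30.9 (log2 fold change −1.10, limma adjusted p = 4.67e-07). Among 13 tested genes of interferon signalling, 6 rose, 2 fell and 5 were not called (median 0.12). Ifng, which encodes interferon-gamma, fell from 137 ± 41.1 to 11.9 ± 6.24 (−3.49, limma adjusted p = 2.85e-07). Its receptor chains differed, with Ifngr1 at −0.89 (limma adjusted p = 9.82e-07) and Ifngr2 at 0.43 (limma adjusted p = 3.12e-04). Jak2, a kinase of the same receptor, rose from 11097 ± 505 to 18840.1 ± 1614 (0.76, limma adjusted p = 1.4e-06). Ifnb1 had at most 1 read in any fresh and 2 in any cultured sample and was not tested. Markers of T and NK cells, the usual source of Ifng, rose in 1, fell in 7 and were not called in 4 of 12 genes, with sums of 6679 to 8939.9 before and 5235 to 6790.4 after culture. The list was split. Gzma (−3.81), Prf1 (−2.57), Ncr1 (−2.45), Klrb1c (−2.02) and Eomes (−1.33) fell most, and Trac (−0.42) and Cd4 (−0.35) fell less. Cd3g rose (0.37), and Cd3d, Cd3e, Cd8a and Cd8b1 were not called. The part of T and NK cells in the result was not tested.

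Pf4, a platelet granule chemokine that lacks the ELR motif, read 46.7, 76.7, 109, 31.8 and 48.3 before and 420.5, 1113, 355 and 426 after culture. All cultured samples were above all fresh ones, at least 3.26-fold, and 1 of them stood well above the other 3. The mean rose 9.26-fold, from 62.5 ± 30.6 to 579 ± 358 (log2 fold change 3.16, SE 0.363, limma adjusted p = 4.21e-06). Ppbp, a second chemokine of platelet granules, rose from 25.0 ± 9.69 to 244 ± 43.2 (3.30, limma adjusted p = 1.05e-07). Platelet and megakaryocyte genes went both ways: of 12 on the list, which holds Ppbp, 9 were tested, 2 rose (Ppbp and Clec1b), 4 fell and 3 were not called. Itga2b, the integrin chain that defines platelets, went from 129 ± 20.0 to 59.8 ± 21.5 (−1.16). Gp1bb, with 7 to 16 reads in each fresh sample and at most 1 in each cultured one, was too low to be tested. The list's sums, with Ppbp in them, were 952 to 1220.3 before and 1131 to 1174 after culture. Ppbp alone gave 13.6 to 39.3 of the sums before and 199 to 303 after culture, so they are not a measure of platelet RNA apart from it. Monocyte and interstitial macrophage markers, of which 6 of 12 were not called, had sums of 44372 to 94334 before and 37349 to 81707 after culture. Which cells held the Pf4 transcripts was not tested.

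Cxcl12, a ligand made by stromal and endothelial cells, read 1281, 2224, 2245, 1717 and 1133 before and 579, 798, 961 and 628 after culture. The groups did not overlap, but the nearest samples were only 1.18-fold apart. The mean fell from 1719.8 ± 516 to 741 ± 174, 2.32-fold lower (log2 fold change −1.19, SE 0.207, limma adjusted p = 1.87e-04). Its receptor Cxcr4 rose from 8545 ± 1298 to 12421 ± 1502 (0.54, limma adjusted p = 7.61e-04). Ackr3, the decoy receptor that takes up Cxcl12, fell from 1066 ± 159 to 42.2 ± 3.85 (−4.62, limma adjusted p = 6.46e-12). Endothelial markers fell in 10 of 10 genes, with sums of 26119.5 to 37902 before and 3387 to 4499.6 after culture, and fibroblast markers fell in 9 of 10, with sums of 18517 to 32172 and 4949.7 to 9962. Their part in the fall of Cxcl12 was not tested.

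Cxcl16, a transmembrane chemokine that DCs and macrophages carry on their surface, had the smallest change of the 9 tested ligands. It read 9428, 8932, 8092, 9663 and 9261 before and 11061, 9816, 11880.3 and 11922 after culture. The groups met closely, with the nearest samples 1.02-fold apart. The mean rose 1.23-fold, from 9075 ± 611 to 11169.7 ± 986 (log2 fold change 0.30, SE 0.0820, limma adjusted p = 0.00547). Its exons overlap those of Zmynd15 on the opposite strand over 552 bases, 18.3% of its exon length, and Zmynd15 rose from 1866 ± 293 to 5237 ± 1079 (1.48, limma adjusted p = 7.02e-07). The strand setting of the counting is not given in the sources used here, so reads in that overlap cannot be assigned. Cxcr6, its receptor, rose from 381 ± 68.4 to 1369 ± 205 (1.85, limma adjusted p = 3.96e-08), and Adam10, a protease that sheds Cxcl16 from the membrane, rose from 4592 ± 308 to 8797 ± 1140.1 (0.93, limma adjusted p = 8.86e-07).

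**Figure D2:**
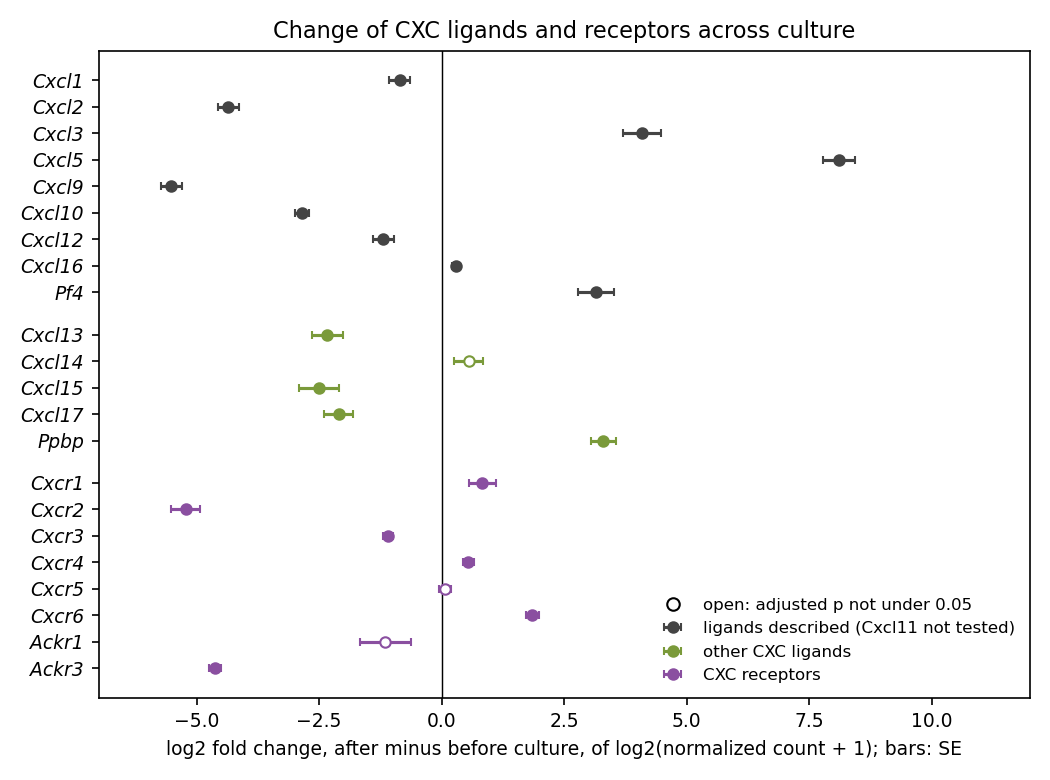
Log2 fold changes (after minus before culture, of the normalized count plus 1) with standard errors for the 9 tested ligands, the other CXC ligands on the list and the CXC receptors, where open points did not pass the threshold. The ligands run from −5.52 for Cxcl9 to 8.11 for Cxcl5, and the receptors from −5.23 for Cxcr2 to 1.85 for Cxcr6.

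Of 7 genes for proteases that cut CXC ligands, 4 rose, 2 fell and 1 was not called (median log2 fold change 0.64). Mmp12, macrophage elastase, rose from 2412 ± 397 to 62246 ± 15411 (4.67, limma adjusted p = 4.09e-11), and Mmp8, a collagenase that neutrophils store, rose from 401 ± 93.4 to 9876 ± 3673 (4.57, limma adjusted p = 8.93e-10). Both gelatinases moved the other way, with Mmp9 at −3.88 and Mmp2 at −2.59. Mmp9 is also on the neutrophil list and Mmp2 is a gene of stromal cells.

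Genes of IL-1, TNF and NF-kB signalling, a known inducer of the ELR ligands, mostly fell. Of 15, 2 rose, 10 fell and 3 were not called (median −0.71). Il1b, the cytokine interleukin-1 beta, fell from 22902 ± 3456 to 3895 ± 851 (−2.57, limma adjusted p = 3.64e-09). Nfkbiz, a nuclear IkB protein, fell from 16909 ± 785 to 1564 ± 136 (−3.44, limma adjusted p = 1.2e-12), and the feedback inhibitors Tnfaip3 and Nfkbia changed by −2.37 and −1.65. Relb, the NF-kB subunit of the alternative pathway, rose from 3025 ± 221 to 10029 ± 739 (1.73, limma adjusted p = 4.53e-10).

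On chromosome 5 the ligand genes that rose and those that fell lay in separate blocks. In GENCODE M21 (GRCm38), 7 CXC ligand genes lie on the plus strand within 146.6 kb in the order Cxcl5, Ppbp, Pf4, Cxcl3, Cxcl15, Cxcl1 and Cxcl2. The first 4, from the start of Cxcl5 at 90759360 to the end of Cxcl3 at 90789600 (30.24 kb), all rose. The 3 that follow, from the start of Cxcl15 at 90794534 to the end of Cxcl2 at 90905938 (111.4 kb), all fell. The end of Cxcl3 and the start of Cxcl15 lie 4.934 kb apart. Whether position in the cluster plays a part was not tested. Cxcl15, a lung epithelial chemokine also called lungkine, fell from 1125 ± 553 to 227 ± 192 (−2.50, limma adjusted p = 9.65e-05), beside the fall of the epithelial markers given above.

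**Figure D3:**
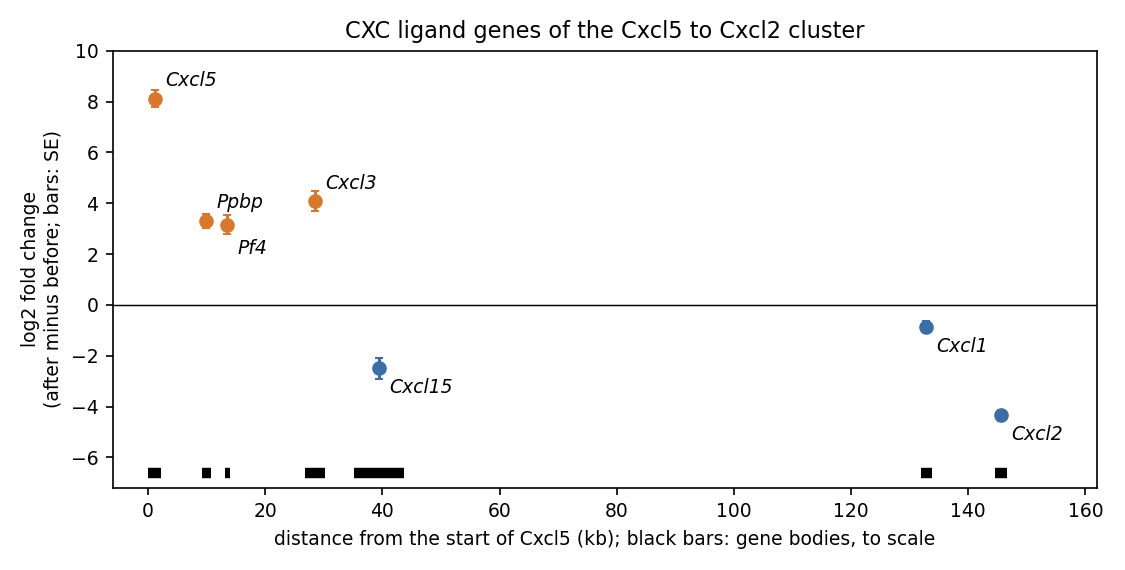
Log2 fold change (after minus before culture, with standard error) of the 7 CXC ligand genes of the cluster against distance from the start of Cxcl5 in kb, with gene bodies drawn to scale as black bars. The 4 genes from Cxcl5 to Cxcl3 lie above 0 and the 3 from Cxcl15 to Cxcl2 below it.

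Cxcl9, Cxcl10 and Cxcl11 form a second cluster 1.415 Mb further along chromosome 5, on the minus strand, from 92321347 to 92365485. Its neighbours were not uniform: Naaa, a cDC1 marker, changed by −3.33 (limma adjusted p = 5.23e-11), Sdad1 by −0.65 and Nup54 by 0.20 (limma adjusted p = 0.0215). Cxcl12 lies on chromosome 6 (117168535 to 117181367, plus strand) and Cxcl16 on chromosome 11 (70453983 to 70459984, minus strand).

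Levels of different ligands were compared per kilobase of the coding transcript. Before culture Cxcl2 led at 12773 normalized counts per kb (8567 to 15892), above Cxcl16 at 3363 (2998 to 3580.3), and neither range met the next. Cxcl1 (917) and Cxcl10 (744) followed with overlapping ranges, then Cxcl12 (306), Cxcl3 (304), Cxcl9 (191) and Pf4 (106), each of which overlapped its neighbour. Cxcl11 (4.63) and Cxcl5 (2.52) were last, and their ranges overlapped. After culture Cxcl3 at 4489.8 per kb (3228 to 6507) and Cxcl16 at 4138 (3637 to 4417) led and overlapped. Pf4 (984), Cxcl5 (824), Cxcl2 (638) and Cxcl1 (514) came next, with overlaps between neighbours. Cxcl12 (132) and Cxcl10 (104) overlapped, and Cxcl9 (4.01) and Cxcl11 (1.34) were last. With the length of all annotated exons joined, a choice added after seeing the data, Cxcl16 led after culture at 3697 per kb and Cxcl3 came second at 1304.

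As shares of the per-kb total of the 10 ligands, Cxcl2 went from 67.6 ± 4.70% (SD, n = 5) to 5.29 ± 1.10% (SD, n = 4) and Cxcl3 from 1.53 ± 0.816% to 37.3 ± 5.91%. The ELR ligands Cxcl1, Cxcl2, Cxcl3 and Cxcl5 together made 74.0 ± 5.34% before and 53.9 ± 5.94% after culture, ranges of 66.3 to 79.9% and 47.9 to 60.8%. Cxcl16 held 18.6 ± 4.58% and then 36.1 ± 8.43%. Cxcl9, Cxcl10 and Cxcl11 together held 5.11 ± 0.694% and then 0.920 ± 0.102%. With the length of all exons joined, Cxcl2 held 60.1 ± 5.94% before and 4.65 ± 1.23% after culture, Cxcl3 0.744 ± 0.418% and 17.7 ± 3.94%, and Cxcl16 27.4 ± 5.85% and 51.8 ± 9.44%. The 4 ELR ligands then held 65.0 ± 6.45% and 35.5 ± 5.16%, so the shares depend on the length used, while each of these kept its direction. The shares are descriptions, and a share can change because another ligand did.

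**Figure D4:**
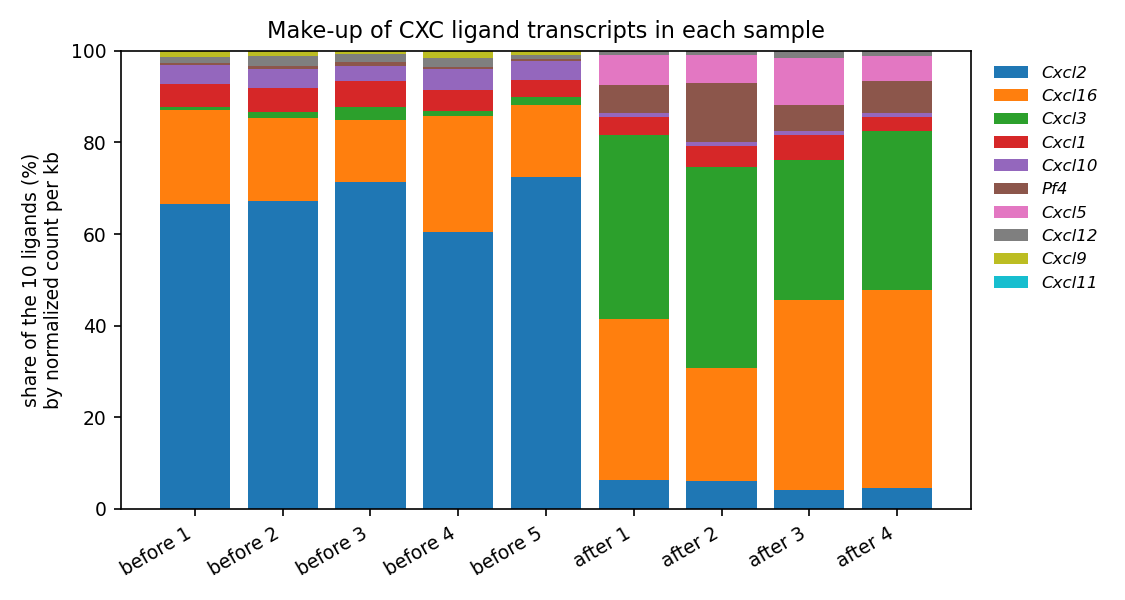
Each ligand's share, in percent, of the summed normalized counts per kb of coding transcript of the 10 ligands, as 1 stacked bar per sample. Cxcl2 makes 60.6 to 72.5% of the bars before culture and 4.15 to 6.32% after it, where Cxcl3 and Cxcl16 make up most of each bar.

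In each group 1 sample held the highest value of many ligands. Before-culture replicate 3 held the highest value of 6 of the 10 ligands (Cxcl1, Cxcl2, Cxcl3, Cxcl5, Cxcl12 and Pf4). It also had the highest sums of neutrophil, alveolar macrophage, monocyte and interstitial macrophage, endothelial and fibroblast markers in its group. After-culture replicate 2 held the highest value of 5 ligands (Cxcl1, Cxcl2, Cxcl3, Cxcl10 and Pf4) and the highest sums of those same 5 lists in its group. Its platelet sum was also the highest, but that list holds Ppbp, at 303 there against 199 to 238 in the other cultured samples. Other platelet genes differed, with Itgb3 highest there (507 against 332 to 479) and Itga2b lowest (30.3 against 60.1 to 81.0). Whether the cells of these lists account for the spread was not tested.

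The gene nearest to each ligand over the 9 samples was found by the root mean square difference of centred log2(count + 1) profiles. Cxcl16 had the closest, Ift172 at 0.0522, followed by Plk3 for Cxcl10 (0.123), Wwtr1 for Cxcl12 (0.134), Efemp2 for Cxcl1 (0.187), Pi16 for Cxcl2 (0.214) and Gm37347 for Cxcl9 (0.218). The ligands that rose by over 4-fold had more distant neighbours, Gm20056 for Cxcl3 (0.357), Akr1b8 for Pf4 (0.433) and Ido2 for Cxcl5 (0.760). The measure says how alike the levels ran over these samples, most of it from the difference between the 2 groups.

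The other 3 CXC ligands outside that cluster were Cxcl13, Cxcl14 and Cxcl17. Cxcl13, a B cell attractant, read 60.7 ± 16.4 before and 11.8 ± 5.41 after culture (−2.33, limma adjusted p = 1.61e-05), and Cxcl17, a mucosal chemokine, read 45.5 ± 8.33 and 10.4 ± 4.45 (−2.10, limma adjusted p = 3.47e-05). Cxcl14 read 461 ± 159 before and 691 ± 300.1 after culture, with overlapping groups (0.55, limma adjusted p = 0.107). With Ppbp and Cxcl15, the 5 ligands outside the 10 gave 1 higher, 3 lower and 1 not called. Of the 8 receptors, 3 rose, 3 fell and 2 were not called, Cxcr5 (0.07, limma adjusted p = 0.623) and Ackr1 (−1.15, limma adjusted p = 0.0615).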

How the data were processed

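RNA of 9 samples was sequenced, 5 before and 4 after culture. The authors deposited 1 table of normalized counts, a signal per gene that is never negative. The submitters' processing notes name DESeq2 and GRCm38; aligner, annotation and strand setting are not given in the sources used here. Divided by the smallest step of their column (the worth of 1 read, 0.758 to 1.79), 100% of the deposited values were whole within 1e-06, which gave reads per gene. Of 49317 rows, 3782 name no gene and stayed out; they held 9.11 ± 1.64% of reads before and 4.57 ± 0.663% after culture. Depth was 14.7 to 35.3 M reads per sample in named rows. Reads carry no molecular identifiers, so replicate spread, not counting error, was used.

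Genes with a mean of at least 10 were tested on log2(value + 1) by limma (version 3.58.1, R version 4.3.3) with culture as the single factor and a mean-variance trend, two-sided, with Benjamini-Hochberg adjustment over all tested genes and a threshold of 0.05. Fold differences without a sign are ratios of group means. Alternatives were pseudocounts of 0.5 and 8, TMM, quantile or upper quartile scaling, no filter or a minimum mean of 50, weights per sample, edgeR 4.0.16 and DESeq2 1.42.0 on the recovered reads, replicate blocks, and leaving out each sample. On those reads edgeR's quasi-likelihood test called 6184 genes higher and 6378 lower, and limma called 6225 and 6299 on the values. The code was tested on simulated data. Gene positions, lengths and 3′ ends came from GENCODE M21 and promoters from RefSeq (GRCm38.p6), where 7 of the 10 ligands matched.

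The ligands, lists and tests were chosen with earlier results of these data known. Besides the 10 ligands, the rule named at most 5 called genes of a list by smallest adjusted p, the receptors Cxcr2, Cxcr3, Cxcr4, Cxcr6 and Ackr3, Ppbp, leading markers and nearest profiles. Cxcl14, Cxcr1, Cxcr5, Ackr1, Irf1, Ifnb1, neighbouring and overlapping genes, and the markers Itgae, Itga2b, Itgb3, Gp1bb and Ly6g were named after their values were seen. So were the markers Trac, Cd4, Cd3d, Cd3e, Cd3g, Cd8a and Cd8b1. Some genes of the lists are not reported here by name. Tables and plots were made in Python 3.11.15 with pandas 2.3.3, NumPy 2.4.6, matplotlib 3.10.9 and SciPy 1.17.1.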

Additional observations from a re-analysis of the deposited data

Results flagged for a closer look

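Each group of each of 40 genes (the CXC ligands, receptors and others named) was checked for 1 sample far from the rest, as the gap to its nearest neighbour over the range of the group. Of 80 groups, 8 had such a sample, where chance gives about 1 in 20. Pf4 was 1113 in after-culture replicate 2, against 355 to 426 in the other cultured samples, and without that sample its log2 fold change was 2.79. In the same replicate Cxcr2 was highest at 42.5 against 15.5 to 18.5, and Cxcr1 lowest at 63.7 against 91.9 to 96.4.

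Cxcl15 was 2081 in before-culture replicate 4, against 763 to 1119 in the others, and 511 in after-culture replicate 3, against 102 to 169.5. Those samples also had the highest summed lung epithelial markers of their groups, 45769 and 9264. Cxcr5 was 746 in before-culture replicate 2, against 529 to 547. Before-culture replicate 4 was lowest for Relb at 2634, against 3094 to 3174, and for Zfp36 at 49515, against 66114 to 70789.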

How the results depend on the processing

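Under 21 alternatives, 9 of which left out a sample, all 189 recomputed values of the 9 tested ligands kept their direction and their side of the threshold. The ligands called were 4 higher in each, and 5 lower in each except with no filter, which tests Cxcl11 too (log2 fold change −1.69, limma adjusted p = 0.0166) and gives 6. The adjusted p of Cxcl16 ran from 0.00145 to 0.0215 with 1 sample left out. Over all genes, 4970 to 7081 were called higher and 4955 to 7069 lower. Upper quartile scaling moved the median of all genes to a log2 fold change of 0.14, and under it Cxcl14 (0.68, limma adjusted p = 0.0298) and Irf1 (0.24, limma adjusted p = 0.0498, against 0.11 and 0.282) were called. Cxcl14 was also called without before-culture replicate 3, after-culture replicate 3 or after-culture replicate 4 (limma adjusted p = 0.0489, 0.0493 and 0.0463). The cause was not tested.

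Titles and library names number the cultured samples differently, and neither numbering is said to pair samples. Deviations from the group means correlated at 0.0807, 0.0796, −0.213 and −0.0403 over same-titled pairs, and at 0.0807, 0.247, 0.349 and 0.0447 by library number, where each cultured sample correlated best with its own number; samples were not treated as paired. With a replicate block by title number, 5761 genes were higher and 5885 lower, and by library number 6390 and 6446. The ligands called stayed at 4 and 5 in both, and Cxcl16 had adjusted p = 0.021 and 0.00122 in limma. The library-number block called Cxcl14 (0.61, limma adjusted p = 5e-05).

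Depth limits Cxcl5 before culture (17 reads in all), Cxcl9 after culture (9 to 19 reads a sample) and Cxcl11 throughout.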
